A study of Mus musculus with 6 samples.

Results

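The 5 TRBV genes TRBV23, TRBV24, TRBV26, TRBV29 and TRBV30 were described in the T cell receptors (TCR) of mouse CD4 T cells that bound a retinal autoantigen. Members were all TRB chains (TCRβ) marked productive by the authors' pipeline and assigned to one of these genes, which made 84 of 1119 productive TRB chains. Of these, 79 stood for a cell that also had a productive TRA chain (TCRα), out of 970 such cells in all. The rule of choice named genes and used no measured value, but it was made with earlier results of these data known.

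The cells bound a class II MHC tetramer of the P2 peptide of interphotoreceptor retinoid-binding protein (IRBP), a photoreceptor protein, and were sorted as P2+CD4+ T cells. They came from pooled cervical (draining the eye), submandibular and axillary lymph nodes (LN) of AireGW/+ Lyn-/- mice at 9 wk of age. All mice of every group carried both defects, a dominant negative allele of Aire, which drives expression of tissue proteins in the thymus, and loss of Lyn, a kinase of inhibitory signalling. The groups differed in whether the mice had uveitis, and cells of several mice were pooled in each library. The uveitis group had 2 libraries, dataset 1 and dataset 2, of 7 and 8 pooled mice, and which dataset came from which pool is not settled. The group without uveitis had 1 library of 16 pooled mice.

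Each dataset is 1 sample, and cells within it are not replicates, and the groups are described without a test. Shares are followed in parentheses by their exact 95% binomial interval (Clopper-Pearson), which covers counting error only and leaves out differences between mice and pools. Cells of a clonotype are not independent draws, so that intervals by cells are too narrow where a clonotype is large. Cells with both chains numbered 176 in dataset 1, 324 in dataset 2 and 470 without uveitis. All chains listed in each dataset, also those not productive or outside these cells, rested on 5302, 7439 and 21408 unique molecular identifiers (UMIs, each marking an RNA molecule). Droplets with more than 1 cell were not removed. Barcodes shared between datasets numbered 0, 0 and 1 for the 3 pairs, and none belonged to a cell of the 5 genes. The contig tables hold no transcript levels, so that the labelled cell type was not checked against its markers, and the mRNA libraries were not analysed here.

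A TCRβ chain is assembled in the thymus by joining a V, a D and a J gene segment, with bases trimmed from the ends and others added without a template. The site of joining encodes the third complementarity-determining region (CDR3), the part of the chain that mostly meets the peptide held by the MHC molecule. The genes described here are the V segments that lie nearest to the D segments in the same orientation, and TRBV31 lies farther on, inverted.

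In the GENCODE annotation of GRCm38, the 5 genes lie on the plus strand of chromosome 6 within 65.9 kb, each with 2 exons. TRBV23 is at chr6:41216073-41216526, TRBV24 at chr6:41218091-41218557, TRBV26 at chr6:41227505-41227993, TRBV29 at chr6:41271394-41271881 and TRBV30 at chr6:41281376-41281990. They end 317, 315, 305, 261 and 251 kb before TRBD1. The other 3 TRBV genes of this stretch, TRBV25, TRBV27 and TRBV28, are annotated as pseudogenes and had no chain in any dataset. Over the spliced germline transcripts, TRBV23, TRBV24 and TRBV26 were the most alike, with 73.6 to 74.9% identical positions for each pair, whereas the other 7 pairs had 48.6 to 55.9%.

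The last germline bases of each gene, from the codon of the cysteine that opens the CDR3, are shown because they are what each V segment can give to a CDR3. The codon after the cysteine is in capitals.
TRBV23: tgcTCCagcagtcaatc
TRBV24: tgtGCCagcagtctgta
TRBV26: tgtGCCagcagtctgtc
TRBV29: tgtGCTagcagtttatc
TRBV30: tgtAGTtctagaga
This codon is for serine in TRBV23 and TRBV30 and for alanine in the other 3 genes. TRBV24, annotated as a pseudogene, has a stop codon at codon 109 of its reading frame, 2 codons before that cysteine.

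TRBV23 to TRBV30 cells made up a smaller share of the cells with uveitis than without. In dataset 1, 14 of 176 cells used one of the genes, or 7.95% (4.42 to 13.0%). In dataset 2, 14 of 324 did, or 4.32% (2.38 to 7.14%). Without uveitis, 51 of 470 did, or 10.9% (8.19 to 14.02%). The uveitis datasets averaged 6.14% ± 2.57 (SD, n = 2 pools). Taken as one, they held 28 such cells of 500, or 5.60% (3.75 to 7.99%). The interval of dataset 1 overlapped that of the dataset without uveitis, whereas that of dataset 2 lay below it.

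Counted by clonotype, cells count once if their TRA and TRB share V gene, J gene and CDR3 bases. The genes then made up 5 of 138 clonotypes in dataset 1, or 3.62% (1.19 to 8.25%). In dataset 2 they made up 11 of 142, or 7.75% (3.93 to 13.4%). Without uveitis they made up 47 of 411, or 11.4% (8.52 to 14.9%). The uveitis datasets thus changed order between the counts, dataset 1 being higher by cells and dataset 2 by clonotypes, while the dataset without uveitis was highest by either. By clonotypes the interval of dataset 1 lay below that without uveitis, and that of dataset 2 overlapped it.

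**Figure D1:**
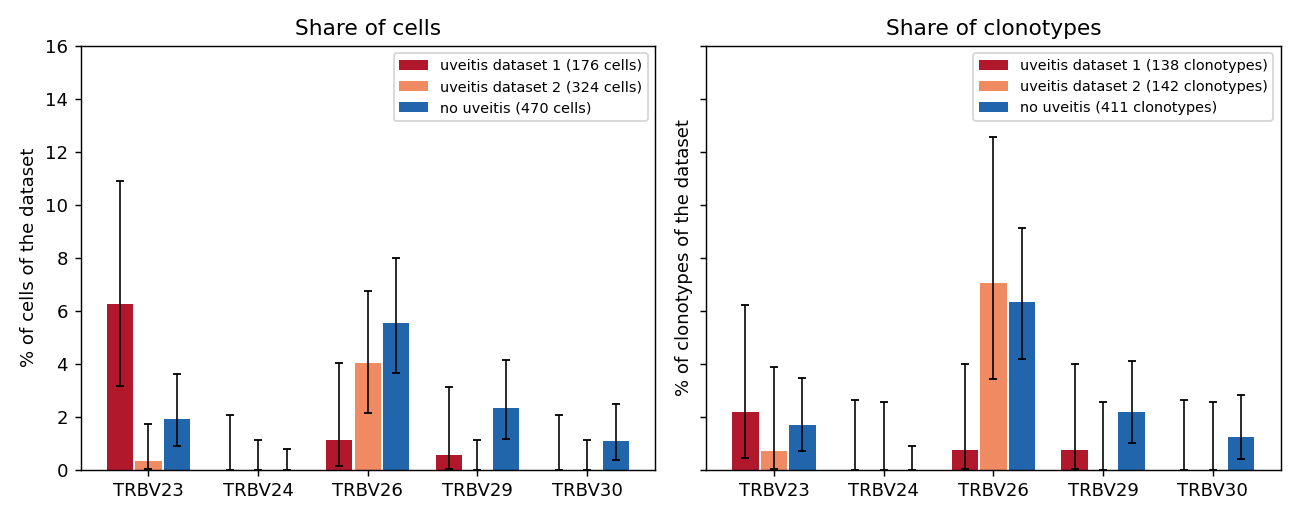
Share of cells (left) and of clonotypes (right), in % of each dataset, for the 5 TRBV genes; bars are datasets and error bars are exact 95% binomial intervals. TRBV23 stood at 6.25% of cells in dataset 1 but 2.17% of its clonotypes, TRBV26 led in dataset 2 and without uveitis, and TRBV24 was at 0 throughout.

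TRBV23, the V segment of the clonotype from which the study built its P2.U2 TCR transgenic mice, had its highest share of cells in dataset 1. It was used by 11 of 176 cells there, or 6.25% (3.16 to 10.9%), by 1 of 324 in dataset 2, or 0.309% (0.00781 to 1.71%), and by 9 of 470 without uveitis, or 1.91% (0.879 to 3.60%). Its interval in dataset 1 did not overlap that of dataset 2, but 8 of the 11 cells were 1 clonotype. By clonotypes the intervals overlapped, with 3 of 138, 1 of 142 and 7 of 411, or 2.17%, 0.704% and 1.70%. Among TRBV genes it ranked 8 of 20 by cells in dataset 1, 16 of 17 in dataset 2 and 17 of 21 without uveitis.

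No chain, productive or not, was assigned to TRBV24 in any dataset, although 3 chains that were not productive and were assigned to TRBV23 matched the end of TRBV24 over 14 to 17 bases and that of TRBV23 over 2. Whether the authors' reference held TRBV24 was not checked. Only if it did would its 0 of 176, 0 of 324 and 0 of 470 cells allow shares of up to 1.70%, 0.926% and 0.638%, taking 3 counts as the limit for a count of 0.

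TRBV26 was the most used of the genes in dataset 2 and without uveitis. It was used by 2 of 176 cells in dataset 1, or 1.14% (0.138 to 4.04%), by 13 of 324 in dataset 2, or 4.01% (2.15 to 6.76%), and by 26 of 470 without uveitis, or 5.53% (3.65 to 8.001%). By clonotypes it ranked 6 of 17 genes in dataset 2, with 10 of 142, and 6 of 21 without uveitis, with 26 of 411. By cells all these intervals overlapped. By clonotypes TRBV26 had 1 of 138 in dataset 1, or 0.725% (0.0183 to 3.97%). That interval lay below the 6.33% (4.17 to 9.13%) without uveitis, and the 7.04% (3.43 to 12.6%) of dataset 2 overlapped both.

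TRBV29 was used by 1 of 176 cells in dataset 1, or 0.568% (0.0144 to 3.12%), by none of 324 in dataset 2 and by 11 of 470 without uveitis, or 2.34% (1.17 to 4.15%). The limit for dataset 2 was 0.926%, and its upper exact bound of 1.13% lay below the lower bound without uveitis by cells, of which 3 were 1 clonotype. By clonotypes the intervals overlapped, with 0 of 142 (up to 2.56%) against 9 of 411, or 2.19% (1.01 to 4.12%). TRBV30, in 5 of 470 cells without uveitis or 1.06% (0.346 to 2.47%), was seen in neither uveitis dataset. The limits of 1.70% and 0.926% there lie within that interval, so that a difference in TRBV30 was not detectable at this depth. The 5 cells of TRBV30 were 5 clonotypes with 5 different TRAV genes.

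The cells of the 5 genes differed between datasets in how often they belonged to an expanded clonotype, one of more than 1 cell. In dataset 1, 12 of 14 did, or 85.7% (57.2 to 98.2%), against 39 of 162 cells with other TRBV genes, or 24.1% (17.7 to 31.4%). In dataset 2 the order was opposite, with 5 of 14, or 35.7% (12.8 to 64.9%), against 213 of 310, or 68.7% (63.2 to 73.8%). Without uveitis, 6 of 51 did, or 11.8% (4.44 to 23.9%), against 74 of 419, or 17.7% (14.1 to 21.7%). Members and the other cells had intervals that did not overlap in dataset 1, that overlapped slightly in dataset 2 and overlapped widely without uveitis.

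The value of dataset 1 rested on few clonotypes, since 3 clonotypes held all 12 cells and 1 of them held 8. The clonotype of 8 cells is clonotype 2 of the study, which the paper already reports as expanded with uveitis. Without that clonotype, an alternative chosen after the data were seen, the genes made up 6 of 168 cells of dataset 1, or 3.57% (1.32 to 7.61%), and 4 of the 6 cells were in expanded clonotypes, or 66.7% (22.3 to 95.7%), which overlapped the interval of other TRBV genes. In dataset 2 the largest clonotype of the 5 genes was a TRBV26 clonotype of 3 cells. Without it, the expanded share fell to 2 of 11, or 18.2% (2.28 to 51.8%), below the interval of other TRBV genes. Without uveitis the expanded share fell to 3 of 48, or 6.25%, without the TRBV23 clonotype of 3 cells. Other TRBV genes kept their largest clonotypes here, of 12, 37 and 18 cells. By clonotypes, 3 of 5 were expanded in dataset 1 against 10 of 133 with other TRBV genes, and the intervals did not overlap. They overlapped in dataset 2, with 2 of 11 against 34 of 131, and without uveitis, with 2 of 47 against 19 of 364. By gene, TRBV23 had 10 of 11 cells in expanded clonotypes in dataset 1, 0 of 1 in dataset 2 and 3 of 9 without uveitis. For TRBV26 these counts were 2 of 2, 5 of 13 and 0 of 26, the last with an upper bound of 13.2%. All 26 TRBV26 cells without uveitis had clonotypes of their own.

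**Figure D2:**
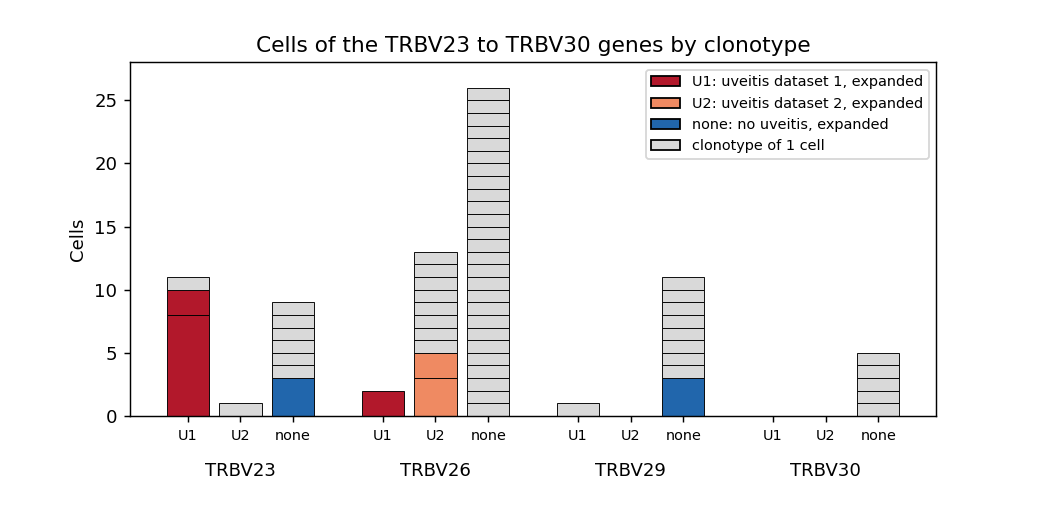
Cells of TRBV23, TRBV26, TRBV29 and TRBV30 in each dataset, with each clonotype as a segment of its bar, coloured where it held more than 1 cell and grey where it held 1. The tallest single segment is the TRBV23 clonotype of 8 cells in dataset 1, and the 26 TRBV26 cells without uveitis are 26 grey segments.

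The expanded clonotypes of the 5 genes are shown by their CDR3β nucleotide sequence, because the same gene gave different joins. Lower case marks bases that match the germline V gene from the start or the germline J gene from the end, and capitals mark the junction between them, which matches neither.
Dataset 1, TRBV23 TRBJ2-4, 8 cells: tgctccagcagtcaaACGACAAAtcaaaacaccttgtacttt
Dataset 1, TRBV23 TRBJ2-1, 2 cells: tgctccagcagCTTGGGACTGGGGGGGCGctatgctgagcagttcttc
Dataset 1, TRBV26 TRBJ1-6, 2 cells: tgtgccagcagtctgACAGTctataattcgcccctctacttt
Dataset 2, TRBV26 TRBJ2-5, 3 cells: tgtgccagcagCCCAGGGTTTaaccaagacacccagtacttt
Dataset 2, TRBV26 TRBJ2-5, 2 cells: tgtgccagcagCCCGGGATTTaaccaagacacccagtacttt
No uveitis, TRBV23 TRBJ2-5, 3 cells: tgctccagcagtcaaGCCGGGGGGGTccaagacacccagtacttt
No uveitis, TRBV29 TRBJ2-3, 3 cells: tgtgctagcagtAcagaaacgctgtatttt
The junctions of these 7 clonotypes ranged from 1 base in TRBV29 to 18 bases in the TRBV23 clonotype of 2 cells. Matched by V gene, J gene and CDR3 bases of both chains, no whole clonotype was found in more than 1 dataset. This held for the 63 with these genes and the 628 with other TRBV genes. The paper, matching by amino acid sequences, reports 1 identical clonotype shared by its 2 uveitis datasets.

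The TRBV23 clonotype of 8 cells, clonotype 2 of the study, paired with TRAV12-2 and TRAJ47 and made up 4.55% (1.98 to 8.76%) of the cells of dataset 1. Its TRB chains rested on 2, 3, 8, 10, 11, 12, 20 and 36 UMIs, so that 2 of the 8 cells had 3 UMIs or fewer. The same CDR3β, base for base, was found in 1 further cell with TRAV12-2 and TRAJ23, where it rested on 46 UMIs. It was also found in 2 barcodes that had no productive TRA chain, with 23 and 21 UMIs. Each of these barcodes had a TRAV12-2 chain marked as not productive, one joined to TRAJ47 and one to TRAJ27. Its CDR3α was found in 1 cell with TRBV13-2 and a TRAV12D-2 call.
CDR3α of clonotype 2, TRAV12-2 TRAJ47: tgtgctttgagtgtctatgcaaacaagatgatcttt
TRAV genes exist in near-identical copies, named with D or N, and calls between copies are uncertain.

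The other TRBV23 clonotypes had other joins. The TRBV23 TRBJ2-1 clonotype of 2 cells paired with TRAV6-4 and TRAJ23, and its TRB chains had 10 and 18 UMIs. In dataset 2 the TRBV23 cell had a junction of 0 bases, so that its CDR3β of 10 residues was made of germline V and J bases alone.
Dataset 2, TRBV23 TRBJ2-1, 1 cell: tgctccagcagtcaagctgagcagttcttc
Without uveitis, the 7 TRBV23 clonotypes had junctions of 4 to 19 bases and CDR3β of 14 to 17 residues. The expanded one paired with TRAV12-1 and TRAJ37, with 8, 23 and 33 UMIs of TRB, and the cell of 8 UMIs also had a TRBV13-2 chain of 2 UMIs.

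In dataset 2, TRBV26 held 3 clonotypes with different CDR3β nucleotide sequences that encode the same 14 residues. They comprised 6 cells, or 46.2% of the 13 TRBV26 cells and 1.85% (0.683 to 3.99%) of all cells of the dataset. All 3 used TRBJ2-5 and TRAJ22, with a TRAV9-1 call in 2 of them and TRAV9D-1 in the third. They are shown with the junction in capitals, together with a further TRBV26 clonotype of that dataset that had TRAV4N-4 and TRAJ11 and the same last 9 residues.
TRAV9-1, 3 cells: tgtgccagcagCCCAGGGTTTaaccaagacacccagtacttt
TRAV9-1, 2 cells: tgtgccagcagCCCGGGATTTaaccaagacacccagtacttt
TRAV9D-1, 1 cell: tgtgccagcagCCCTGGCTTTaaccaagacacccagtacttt
TRAV4N-4, 1 cell: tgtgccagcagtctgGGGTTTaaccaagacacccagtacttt
Each pair of the first 3 sequences differed at 2 bases, all in the junction. Their V part ended at 11 bases and their J part took 21 bases in each case.

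Their CDR3α also encoded a single sequence of 14 residues, by 2 nucleotide sequences that differ at 1 base. The first was in the clonotype of 3 cells and the second in the other 2 clonotypes.
CDR3α, first: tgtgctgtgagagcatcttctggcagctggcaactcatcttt
CDR3α, second: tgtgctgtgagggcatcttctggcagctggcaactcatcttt
The first was also found in dataset 1, in 1 cell with both chains, which had TRAV9-1, TRAJ22 and TRBV5 TRBJ2-5. The TRB chains of the 6 cells rested on 1, 10 and 15 UMIs in the first clonotype, on 15 and 15 in the second and on 10 in the third. Leaving out the chain of 1 UMI took the first clonotype to 2 cells and kept all 3. No cell without uveitis had this CDR3β or this CDR3α.

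The expanded TRBV26 clonotype of dataset 1 paired with TRAV9-4 and TRAJ31, with 4 and 15 UMIs of TRB. Its CDR3α is shown because it was found again in dataset 2, in 6 clonotypes with 4 other TRBV genes and 59 cells, or 18.2% of that dataset, the largest of 34 cells.
CDR3α, TRAV9-4 TRAJ31: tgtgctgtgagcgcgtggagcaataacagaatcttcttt
These counts take the TRB chain with most UMIs of each cell. None of these 6 clonotypes used one of the 5 genes, and the sequence was not found without uveitis. The TRAV9 copy called for it was TRAV9-1, TRAV9D-1 or TRAV9-4.

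Without uveitis, a TRBV26 TRBJ1-4 CDR3β of 11 residues was found in 2 clonotypes of 1 cell each, one with TRAV17 and TRAJ56 and one with TRAV9-4 and TRAJ16. Their TRB chains had 19 and 32 UMIs.
No uveitis, TRBV26 TRBJ1-4, 2 clonotypes: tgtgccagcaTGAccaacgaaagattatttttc
The expanded TRBV29 clonotype paired with TRAV4D-3 and TRAJ42, with 12, 28 and 33 UMIs of TRB. Its CDR3α was found in 1 further cell, with TRBV19 and a TRAV4-4-DV10 call. Its CDR3β had 10 residues. A further TRBV29 clonotype without uveitis, with TRBJ2-1 and 11 residues, also had a junction of 1 base.
No uveitis, TRBV29 TRBJ2-1, 1 cell: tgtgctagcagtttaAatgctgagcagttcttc

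A CDR3β nucleotide sequence that recurred in another clonotype was found in 2 of the 5 clonotypes of dataset 1, against 51 of 133 with other TRBV genes. The counts were 0 of 11 against 28 of 131 in dataset 2, and 2 of 47 against 35 of 364 without uveitis. A recurring CDR3α was found in 3 of 5 against 37 of 133, 3 of 11 against 22 of 131 and 1 of 47 against 14 of 364. Recurrence across datasets was rare for all genes. It was seen for the CDR3β of 0 of 63 clonotypes of the 5 genes and 4 of 628 others, and for the CDR3α of 2 and 13.

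Junctions of the 5 genes were about as long as those of other TRBV genes. The median was 8, 10 and 9 bases in dataset 1, dataset 2 and without uveitis, with ranges of 3 to 18, 0 to 14 and 1 to 19 bases. Other TRBV genes had medians of 11, 11 and 9 bases. Without uveitis, where each gene had 5 clonotypes or more, the medians were 11 bases for TRBV23, 7.5 for TRBV26, 10 for TRBV29 and 7 for TRBV30. All 63 clonotypes matched the end of their own V gene over at least 10 bases. TRBV23, TRBV29 and TRBV30 differ from each other and from TRBV26 within these bases. TRBV24 and TRBV26 share them, as can genes outside the 5 such as TRBV5, so that the match alone does not settle a label.

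**Figure D3:**
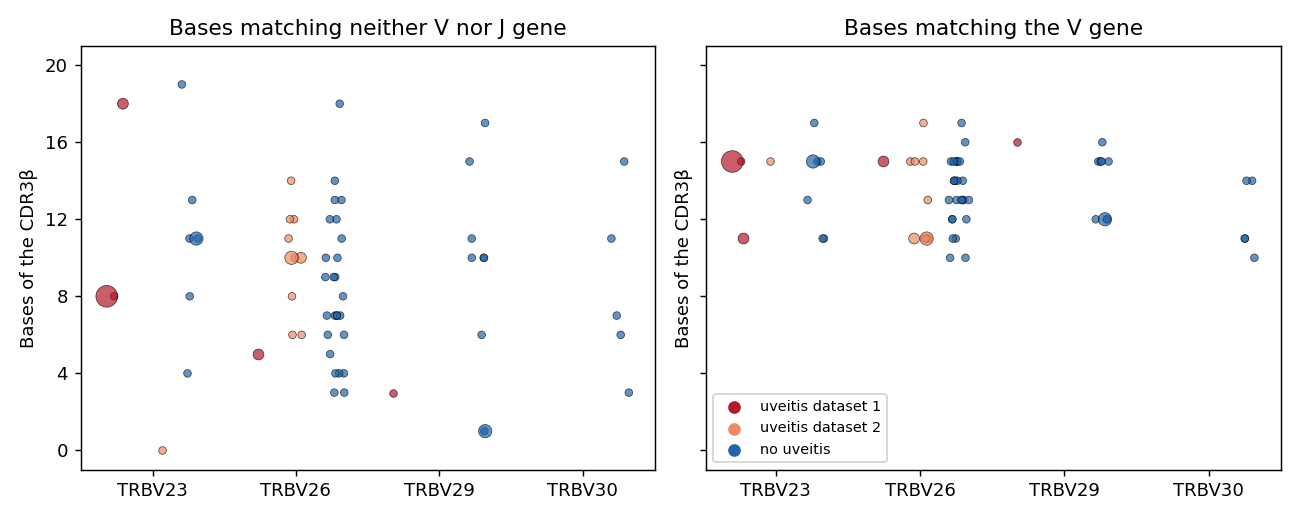
Bases of each CDR3β that match neither germline V nor J gene (left) and bases that match the V gene (right), for each clonotype by gene and dataset, with the area of a point in proportion to its cells. Junctions spanned 0 to 19 bases, and the largest point is the TRBV23 clonotype of 8 cells with 8 junction bases.

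The CDR3β was 14 residues long in the median in every dataset, counting the cysteine and the phenylalanine at its ends, for the 5 genes and for other TRBV genes alike. The ranges for the 5 genes were 12 to 16, 10 to 14 and 10 to 17 residues. Without uveitis the median was 13 for TRBV26 and TRBV30 and 14 for TRBV23 and TRBV29.

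Of the J genes, which give the end of the CDR3β, the TRBJ2 cluster took most clonotypes. It took 4 of 5 in dataset 1, 9 of 11 in dataset 2, or 81.8% (48.2 to 97.7%), and 30 of 47 without uveitis, or 63.8% (48.5 to 77.3%). For other TRBV genes the shares were 76.7%, 74.0% and 64.6%, each within the interval of the 5 genes. TRBJ2-1 and TRBJ2-4 had 2 clonotypes each in dataset 1. TRBJ2-5 led in dataset 2, with 5 of 11 clonotypes, of which 3 were those that encode 1 CDR3β, and was followed there by TRBJ1-1 and TRBJ2-7 with 2 each.

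Without uveitis the leading J genes were TRBJ2-5 in 11, TRBJ1-4 in 10 and TRBJ2-7 in 8 of 47 clonotypes. TRBJ1-4 stood at 21.3% (10.7 to 35.7%), against 26 of 364 or 7.14% (4.72 to 10.3%) for other TRBV genes. The intervals did not overlap, for 1 of 12 J genes compared. The 10 clonotypes were spread over the genes, with 5 of TRBV26, 2 of TRBV23, 2 of TRBV30 and 1 of TRBV29. In the uveitis datasets none of the 16 clonotypes of the 5 genes used TRBJ1-4, against 14 of 264 with other TRBV genes.

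**Figure D4:**
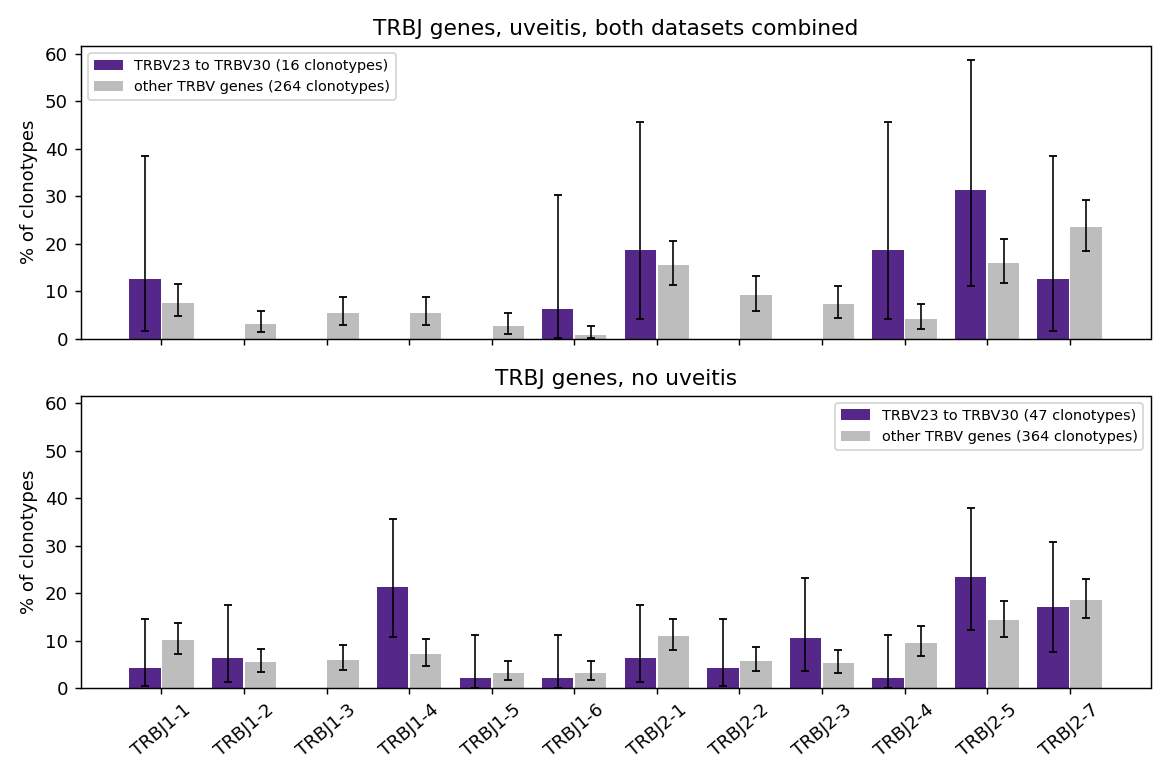
Share of clonotypes with each TRBJ gene, in %, for the 5 genes (purple) and other TRBV genes (grey), with both uveitis datasets combined above and the dataset without uveitis below; error bars are exact 95% binomial intervals, drawn where at least 1 clonotype was found. TRBJ1-4 without uveitis (21.3% against 7.14%) has intervals that do not overlap.

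A TRBD gene was named for 1 of 5, 7 of 11 and 33 of 47 clonotypes of the 5 genes. For other TRBV genes it was named for 73.7%, 74.8% and 75.5%. TRBD2, which lies after the TRBJ1 cluster, was named for 1, 1 and 14 clonotypes of the 5 genes, none of them with a TRBJ1 gene. With other TRBV genes it was named for 50, 51 and 120, of which 1, 5 and 7 had a TRBJ1 gene. So few TRBD2 clonotypes do not set the 5 genes apart. No chain of any dataset was assigned to TRBC2, also none of those with TRBJ2 genes, so that the constant gene carried no information here.

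TRAV partners were spread widely. The 5, 11 and 47 clonotypes used 4, 10 and 33 TRAV genes and 3, 7 and 26 TRAJ genes. TRAV12-2 had 2 of 5 clonotypes in dataset 1, against 2 of 133 with other TRBV genes. TRAV9-1 had 2 of 11 in dataset 2, against 20 of 131. TRAV12D-2, TRAV7-4 and TRAV7D-2 had 4, 3 and 3 of 47 without uveitis, against 7, 9 and 14 of 364. The intervals overlapped for each of these TRAV genes, for TRAV12-2 only just. Among TRAJ genes, TRAJ23 had 3 of 5 clonotypes in dataset 1, or 60.0% (14.7 to 94.7%). With other TRBV genes it had 6 of 133, or 4.51% (1.67 to 9.56%). These intervals did not overlap, although the first rests on 5 clonotypes only. TRAJ22, TRAJ26 and TRAJ6 had 3, 2 and 2 of 11 in dataset 2, against 7, 1 and 4 of 131, with intervals that overlapped. TRAJ15, TRAJ37 and TRAJ23 had 4, 4 and 3 of 47 without uveitis. Grouped by family after the values were seen, TRAV9 genes paired with 2 of 5, 4 of 11 and 2 of 47 clonotypes. With other TRBV genes they paired with 24.1%, 29.0% and 11.3%, and the interval without uveitis for the 5 genes, 0.520 to 14.5%, held the last of these.

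TRB chains of the 5 genes rested on a median of 11.5 UMIs (range 2 to 46) in dataset 1, 9.5 (1 to 21) in dataset 2 and 13 (1 to 56) without uveitis. Other TRBV genes had medians of 11, 10 and 16. The TRA chains of these cells had medians of 5.5, 7 and 9 UMIs, against 5, 4 and 7. The depth of TRB was thus somewhat lower without uveitis than for other genes, and that of TRA higher, most so in dataset 2. Of the 79 cells, 3 had a second productive TRB chain and 10 a second productive TRA chain. A further 3 chains of TRBV23 in dataset 1 had no productive TRA, and 1 TRBV26 chain in dataset 2 and 1 TRBV29 chain without uveitis were the lesser of 2 TRB chains in a cell.

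**Figure D5:**
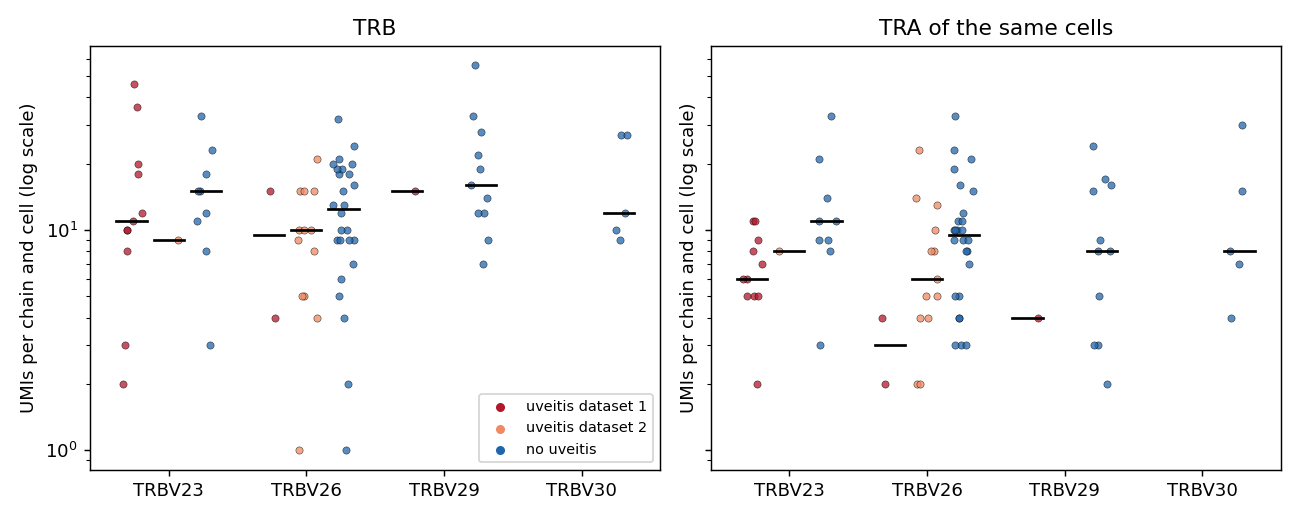
UMIs behind the TRB chain (left) and the TRA chain (right) of each cell, on a log scale, by gene and dataset; points are cells and black bars are medians. TRB chains ranged from 1 to 56 UMIs.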

How the data were processed

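P2+CD4+ T cells of 3 TCR libraries were analysed. The authors processed the reads with Cell Ranger version 3 and its mouse VDJ reference (GRCm38). The deposited counts are whole numbers of reads and UMIs for each contig, without normalization. A cell needed a productive TRA and TRB chain; of several, the chain with most UMIs was used. Cells of 1 clonotype shared V gene, J gene and CDR3 bases for TRA and TRB, and expanded clonotypes had more than 1 cell. These filters keep more cells and clonotypes than the study counted, and the cause of the gap was not tested. The gap was small in dataset 1 and larger in dataset 2 and without uveitis, so that shares here have larger denominators than the study's counts. Germline sequences and positions came from GENCODE vM21 (GRCm38), which may differ from the authors' reference.

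The members and lists were chosen with earlier results of these data known. Named items were the 5 genes, their expanded clonotypes, clonotypes whose CDR3 nucleotide sequence recurred, and the 3 TRBJ, TRAV and TRAJ genes in most of their clonotypes, ties by name, with at least 2. No test was made. Alternatives were other rules for cells with several chains, at least 2 UMIs, TRB without TRA, other clonotype definitions and each uveitis dataset left out. Cell counts, clonotype counts and CDR3 splits were tested on simulated data. Python 3.11.15, pandas 2.3.3, scipy 1.17.1, Biopython and matplotlib 3.10.9 were used.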

Additional observations from a re-analysis of the deposited data

Results flagged for a closer look

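Chains marked as not productive were outside all counts above. In the dataset without uveitis, 5 TRBV23 chains were of this kind, above the 3 counts taken as a limit, beside 9 productive ones. They rested on 2 to 7 UMIs. Dataset 1 and dataset 2 had 1 each, TRBV26 had 1 without uveitis, and the other genes had none. Of the 7 TRBV23 chains, 3 had a CDR3 sequence, and it matched the end of TRBV23 over 2 bases only. These 3 matched the end of TRBV24 over 17, 14 and 17 bases, the longest match among all TRBV genes, tied with TRBV26 for the second. They are shown with bases that match neither TRBV24 nor the J gene in capitals.
Dataset 2, TRBJ2-1, 2 UMIs: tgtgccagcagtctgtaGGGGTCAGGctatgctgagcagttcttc
No uveitis, TRBJ1-3, 2 UMIs: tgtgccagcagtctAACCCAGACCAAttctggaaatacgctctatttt
No uveitis, TRBJ2-7, 4 UMIs: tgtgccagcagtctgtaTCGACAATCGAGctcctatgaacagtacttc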

How the results depend on the processing

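Shares by cells and clonotypes, the expanded share, the TRBJ2 share and the median CDR3β length were recomputed for each dataset and for the uveitis datasets combined. Of 94 alternative values that kept all datasets, 93 stayed within the interval of the value reported. Many of these intervals are so wide, such as 28.4 to 99.5% for the TRBJ2 share of dataset 1, that this count does not show the values to be stable. The exception was the share of cells in dataset 1, which moved from 7.95 to 3.57% without its clonotype of 8 cells, by construction, an alternative chosen after the data were seen. The same step took the expanded share from 85.7 to 66.7% in dataset 1, from 35.7 to 18.2% in dataset 2 and from 11.8 to 6.25% without uveitis. With 1 uveitis dataset left out, which with 2 datasets gives only the value of the other, the combined share of 5.60% of cells became 4.32 or 7.95%, and the combined expanded share of 60.7% became 35.7 or 85.7%. No paired analysis was possible because the labels match neither uveitis dataset to the dataset without uveitis, and no result comes from a test. Few cells limit every value, since 14 members per uveitis dataset leave wide intervals, and 1 pool without uveitis gives no spread between pools.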

Other observations

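After the values were seen, other TRBV genes were searched for CDR3β with the last 9 residues shared by the TRBV26 clonotypes with TRAJ22 of dataset 2. TRBV5 clonotypes with TRBJ2-5, TRAV9-1 and TRAJ22 were found in dataset 1 and dataset 2, with 2 cells each. Their CDR3β was the same in both, base for base, and differed from that of the TRBV26 clonotypes by 1 residue, as did their CDR3α. The CDR3α of these TRBV5 clonotypes encoded the same residues in both datasets by different bases, so that they count as separate clonotypes here. The sequences are shown with the junction in capitals.
TRBV26, dataset 2: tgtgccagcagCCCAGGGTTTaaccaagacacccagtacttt
TRBV5, dataset 1 and dataset 2: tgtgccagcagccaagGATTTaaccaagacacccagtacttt
TRBV5 clonotypes of dataset 1 with this CDR3β also had TRAV9-2 with TRAJ31 and TRAV10 with TRAJ12, in 1 cell each. Without uveitis 1 cell had this ending, with TRBV5, TRAV9-2 and TRAJ34 and a CDR3β of 15 residues.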
